A study of Mus musculus with 6 samples.

Results

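The 9 genes described here encode the IL-33 receptor ST2 (Il1rl1), its accessory chain (Il1rap), its inhibitor SIGIRR (Sigirr) and the related receptors and antagonist of the IL-1 family (Il18r1, Il18rap, Il1r1, Il1r2, Il1rl2 and Il1rn). They were chosen by name, as the IL-33 receptor and its closest relatives, by a rule that uses no measured value. Earlier results of these data were known when they were chosen. All 9 are among the 26128 genes of the deposited count table, and 8 of them were among the 14671 genes with enough counts to be tested. RNA was sequenced from double negative T (DNT) cells, T cells with neither CD4 nor CD8 on the surface. These had been converted in culture, with mature DBA/2 dendritic cells and IL-2, from CD4+CD25- T cells of adult wild type C57BL/6 mice. They were then sorted as CD3+NK1.1-CD4-CD8- cells. By the methods of the study the mice were male. The labels give spleen as the tissue, and the methods of the study name lymph nodes as well. After the sort, 3 libraries came from cells that spent 48 h with anti-CD3/CD28 beads alone (control) and 3 from cells kept with the same beads and IL-33 at 50 ng/ml, so that T cell receptor stimulation was common to both groups. The labels do not say whether the libraries of a group came from separate mice or cultures, so the p-values measure only the spread between these libraries, which may be technical.

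IL-33 binds ST2, which then recruits the accessory chain IL-1RAP, and the joined cytoplasmic TIR domains pass the signal through MyD88, IRAK kinases and TRAF6 to NF-κB. The same accessory chain serves the IL-1 receptor (Il1r1) and the IL-36 receptor (Il1rl2), whereas IL-18 has an accessory chain of its own (Il18rap) beside its binding chain (Il18r1). Il1r2 encodes a decoy that binds IL-1 without signalling, Sigirr a member that dampens signals of the family, and Il1rn the secreted antagonist of the IL-1 receptor. ST2 is known in lymphocytes from type 2 helper cells, type 2 innate lymphoid cells and tissue regulatory T cells.

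Of the 9 genes, 6 lie side by side on chromosome 1, all on the plus strand, between positions 40074079 and 40551705 of GRCm38 (GENCODE M21), a stretch of 478 kb. Their order is Il1r2, Il1r1, Il1rl2, Il1rl1, Il18r1 and Il18rap. Il1rl1 (ENSMUSG00000026069, 40429570 to 40465415) ends only 136 bases before Il18r1 (ENSMUSG00000026070, 40465552 to 40500854) begins. The gaps between the other neighbours of this order measured 99848, 7352, 62007 and 14507 bases. Il1rap lies on chromosome 16 (26581704 to 26730117), Sigirr on the minus strand of chromosome 7 (141091175 to 141100572) and Il1rn on chromosome 2 (24336853 to 24351494).

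Promoters are shown for the 3 genes of the cluster that changed with IL-33, since the data bear on genes that share a neighbourhood and moved in opposite directions. They come from RefSeq (GRCm38.p6) and run from 250 bases before a start site to 50 bases after it. RefSeq promoters were found for 8 of the 9 genes, 14 in all. Il1rl1 has 2 of them, and capitals mark a match to AGATAA, a motif that GATA factors bind, or to its reverse complement.
Il1rl1 promoter 1 (chr1:40429320-40429619, plus strand): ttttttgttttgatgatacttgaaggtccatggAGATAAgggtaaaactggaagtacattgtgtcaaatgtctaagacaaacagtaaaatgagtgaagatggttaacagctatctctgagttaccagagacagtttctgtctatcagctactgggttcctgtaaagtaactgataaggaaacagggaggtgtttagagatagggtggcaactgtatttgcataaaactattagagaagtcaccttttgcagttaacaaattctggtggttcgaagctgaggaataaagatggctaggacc
Il1rl1 promoter 2 (chr1:40439379-40439678, plus strand): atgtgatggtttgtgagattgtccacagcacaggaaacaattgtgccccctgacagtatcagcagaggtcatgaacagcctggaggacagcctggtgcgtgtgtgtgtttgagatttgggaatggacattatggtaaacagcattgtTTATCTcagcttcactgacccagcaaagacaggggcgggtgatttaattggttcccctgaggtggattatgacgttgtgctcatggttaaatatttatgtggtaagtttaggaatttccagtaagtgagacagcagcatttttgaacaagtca
Of the promoters of Il1r1 and Il18r1, 1 each held a match to a searched motif, shown again in capitals. These are a match to the NF-κB consensus in Il1r1 and 2 matches to TTCNNNGAA, the motif of STAT factors, in Il18r1.
Il1r1 promoter 2 (chr1:40266336-40266635, plus strand): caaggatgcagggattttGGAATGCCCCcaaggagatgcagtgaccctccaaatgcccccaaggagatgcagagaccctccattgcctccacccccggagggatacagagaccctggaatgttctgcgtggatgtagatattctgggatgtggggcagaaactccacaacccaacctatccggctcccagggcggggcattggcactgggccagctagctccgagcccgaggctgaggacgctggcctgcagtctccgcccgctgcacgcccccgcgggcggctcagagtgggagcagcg
Il18r1 promoter 3 (chr1:40465756-40466055, plus strand): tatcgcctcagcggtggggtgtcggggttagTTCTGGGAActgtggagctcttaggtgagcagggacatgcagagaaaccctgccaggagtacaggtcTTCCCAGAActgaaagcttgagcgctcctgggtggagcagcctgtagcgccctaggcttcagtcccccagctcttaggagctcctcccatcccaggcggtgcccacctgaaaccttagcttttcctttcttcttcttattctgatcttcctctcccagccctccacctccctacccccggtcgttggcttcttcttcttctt

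All motifs were searched on both strands, and none of the matches overlapped another motif. Counted from the start site, the match to AGATAA began at -217 in promoter 1 of Il1rl1 and at -103 in promoter 2. These 2 were the only ones of the 14 promoters that held it, while 11.2% of all 32851 mouse promoters of the same length did. In Il18r1 the matches to TTCNNNGAA began at -219 and -152. Il1r2 held a further one at -111, and 8.30% of all promoters held at least 1. The match in Il1r1 began at -232, and 8.46% of all promoters held such a match. Il1rn had a match to the AP-1 motif TGANTCA at -141, and 7.81% of all promoters held one. The GC content was 38.7% and 44.7% in the promoters of Il1rl1 and 72.0% in that of Il1rap, beside a median of 52.7% over all promoters. A match is a description of the letters in these windows and does not show that a factor bound there.

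Il1rl1 fell with IL-33, by about as much as Il1r1, and which of the 2 fell more changed with the library left out. Control libraries held 298, 375 and 339 counts of it and the libraries with IL-33 held 206, 198 and 226. As counts per 1000000 (CPM, scaled between libraries) the control libraries held 14, 18.5 and 15.5 and the others 9.58, 9.44 and 10.2. Every library with IL-33 lay below every control library, and the control libraries were the more spread out. The group means were 16 ± 2.25 and 9.73 ± 0.387 CPM (SD, n = 3). This made a log2 fold change of -0.71, with a standard error of 0.11 and a 95% interval of -0.94 to -0.49. The quasi-likelihood test of edgeR, used throughout with Benjamini-Hochberg adjustment across the 14671 genes, gave an adjusted p of 9.0e-08. Sequence counted per gene does not tell apart the membrane receptor and the shorter soluble ST2 that the same gene encodes. GENCODE M21 lists 5 transcripts of Il1rl1, of which 2 hold 1701 coding bases and 2 hold 1011, with 5′ ends spread from 40429570 to 40440628. In bulk RNA, fewer cells that express a gene and less RNA per cell cannot be told apart. These counts do not measure protein, and the study reported no significant change of surface ST2 with IL-33 by flow cytometry.

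Il1r1, which encodes the signalling receptor for IL-1, also fell. Its counts were 171, 149 and 150 in control libraries and 94, 85 and 122 with IL-33, so the groups did not overlap here either. The mean went from 7.41 ± 0.610 to 4.64 ± 0.755 CPM (SD, n = 3), a log2 fold change of -0.67 (standard error 0.15, 95% interval -0.98 to -0.37, edgeR adjusted p = 2.8e-04). Without the second IL-33 library the log2 fold change of Il1r1 was -0.58, just under a fold change of 1.5. Sigirr, the inhibitory member, had 3207, 3381 and 3472 counts in control libraries and 2959, 2897 and 3060 in the others. In CPM this was 151, 166 and 158 against 138 in each of the libraries with IL-33. The groups were apart, but the fall was small beside that of Il1rl1, at -0.20 on the log2 scale (standard error 0.038, edgeR adjusted p = 7.4e-06).

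The only member that rose was Il18r1, the binding chain of the IL-18 receptor and the gene next to Il1rl1. Counts of 1066, 1152 and 1240 in control libraries compared with 1496, 1528 and 1579 with IL-33, and no library crossed over. The mean went from 54.5 ± 3.70 to 71.2 ± 1.66 CPM (SD, n = 3), or 1.31-fold (log2 fold change 0.38, standard error 0.050, 95% interval 0.28 to 0.48, edgeR adjusted p = 3.5e-10). Il18rap, its signalling partner, was at 192 ± 9.01 CPM without IL-33 and 184 ± 7.68 with it, and its libraries overlapped. Its log2 fold change of -0.06 (95% interval -0.13 to 0.01, edgeR adjusted p = 0.228) did not pass the test, although without the first control library it did (-0.10, edgeR adjusted p = 0.0467).

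**Figure D1:**
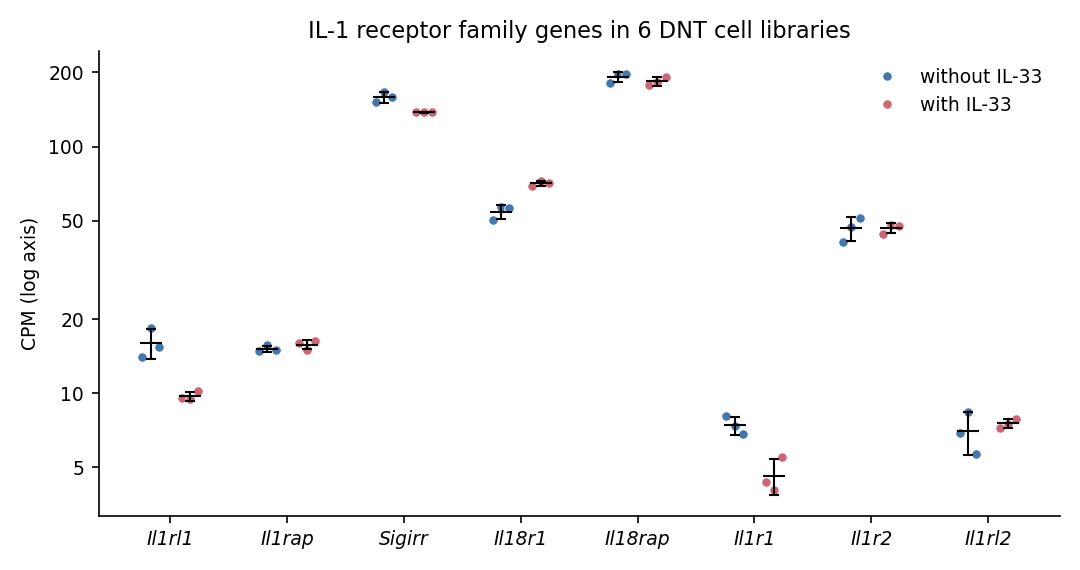
CPM (log axis) of the 8 tested genes in each of the 6 libraries, with points for libraries and black bars for the mean and SD of n = 3. Il1rl1, Il1r1 and Sigirr lay lower in every library with IL-33, Il18r1 lay higher in every one, and the points of the other 4 genes overlap. Il1rn, with at most 1 count in a library, is not drawn.

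The other 3 receptor chains tested did not pass the test, and their libraries overlapped between groups. Il1rap, without which ST2 does not signal, had 315, 318 and 329 counts in control libraries and 345, 314 and 361 with IL-33. This was 15.2 ± 0.425 and 15.8 ± 0.682 CPM, with a log2 fold change of 0.06 (95% interval -0.14 to 0.25, edgeR adjusted p = 0.730). Il1r2, the decoy, averaged 46.7 CPM in both groups (SD 5.14 without and 2.24 with IL-33), and the 95% interval of its log2 fold change ran from -0.12 to 0.12. Il1rl2, the IL-36 receptor, was at 7.0 ± 1.38 and 7.54 ± 0.288 CPM, with a 95% interval from -0.17 to 0.39. Il1rn had 0, 1 and 1 counts in control libraries and 0 in each library with IL-33. Both groups were below the limit of 3 counts in a library, equal to 0.135 to 0.148 CPM, which covers counting error only, so no fold was computed. Exons of 1 member, Il1rap, overlap those of another gene. The antisense gene Gm20319 shares 552 exon bases with it and had 5 counts over all libraries.

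Counted together, 1 of the 8 members tested rose and 3 fell at an adjusted p under 0.05, while 13.6% of all genes tested rose and 13.9% fell. With the added requirement of a fold change of 1.5, Il1rl1 and Il1r1 remained, both lower. By that rule 2.39% of all genes tested were lower and 2.47% higher, and Il18r1 was under the fold. Without any model, the libraries of the groups did not overlap for 1 member that was higher and 3 that were lower. Among all genes tested the corresponding shares were 19.4% and 19.5%. The median log2 fold change over the 8 members was -0.03, beside -0.00063 over all genes tested.

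**Figure D2:**
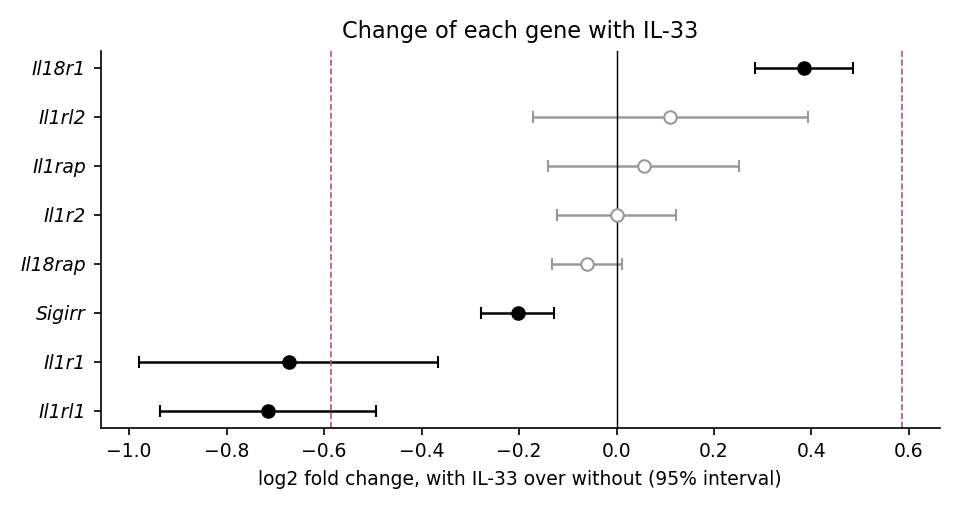
Log2 fold change of the 8 tested genes, with IL-33 over without, and 95% intervals from the edgeR fit. Filled points passed an adjusted p of 0.05, and dashed lines mark a fold change of 1.5 in either direction. Il1rl1 (-0.71) and Il1r1 (-0.67) lie past the left line, Sigirr (-0.20) and Il18r1 (0.38) lie inside, and the intervals of the other 4 reach across 0.

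The direction of change did not follow the order of the genes on chromosome 1. From one end of the cluster to the other the log2 fold changes were 0.00055 for Il1r2, -0.67 for Il1r1, 0.11 for Il1rl2, -0.71 for Il1rl1, 0.38 for Il18r1 and -0.06 for Il18rap. The 2 genes that fell by the most were thus separated by Il1rl2, which did not pass the test. Il1rl1 and Il18r1, only 136 bases apart, moved in opposite directions. Another 4 annotated genes lie inside the stretch of the cluster, none of them with enough counts to be tested. Of the 12 genes annotated within 300 kb on either side of it, 3 were tested. Only Map4k4, a kinase gene beyond Il1r2, was called, at a log2 fold change of 0.14 (169 to 186 CPM, edgeR adjusted p = 0.00111).

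**Figure D3:**
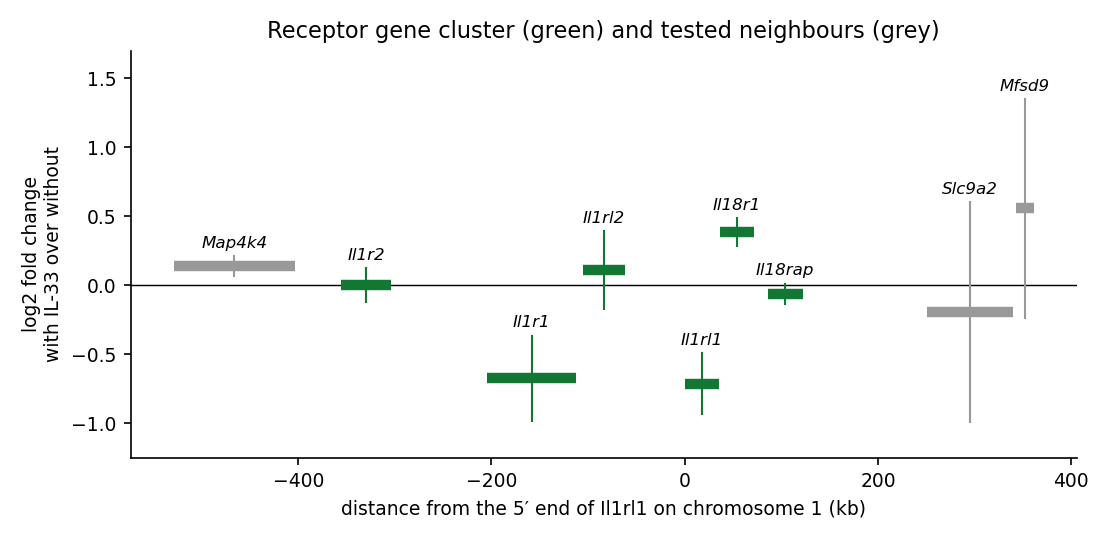
Log2 fold change with IL-33 over without (vertical axis, thin lines 95% intervals) against distance in kb from the 5′ end of Il1rl1. Thick bars span each gene, green for the 6 receptor genes and grey for tested neighbours. Il1rl1 and the adjoining Il18r1 sit at -0.71 and 0.38.

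Ratios of 2 genes within a library do not depend on the scaling between libraries. The ratio of Il1rl1 to Il1rap counts was 0.946, 1.18 and 1.03 in control libraries and 0.597, 0.631 and 0.626 with IL-33. RNA for the binding chain of the IL-33 receptor was thus lower against RNA for its accessory chain in every library with IL-33. The difference in mean log2 ratio was -0.76. The ratio of Il1rl1 to Sigirr, its inhibitor, fell from 0.10 ± 0.00933 to 0.0706 ± 0.00288 without overlap. The ratio of Il1rl1 to Il18r1 showed the widest separation, at 0.280, 0.326 and 0.273 in control libraries and 0.138, 0.130 and 0.143 with IL-33, a difference of -1.09 in log2 ratio. For IL-18, the ratio of binding to accessory chain was 0.284 ± 0.00617 in control libraries and 0.387 ± 0.0155 with IL-33. The decoy Il1r2 had 6.36 ± 1.2 counts for each count of Il1r1 without IL-33 and 10.2 ± 1.59 with it. The ratio of Il1rap to Sigirr was 0.0957 ± 0.00223 and 0.114 ± 0.00518. In all 6 pairs the groups did not overlap, and the exact two-sided permutation test over libraries gave p = 0.1 for each, also after adjustment over the 6 pairs, which is the smallest value that 3 against 3 libraries can give. Each pair holds a gene whose own libraries did not overlap between groups, and the pairs share genes. The 6 ratios thus follow in large part from the changes of single genes. The share of all gene pairs without overlap was not computed.

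**Figure D4:**
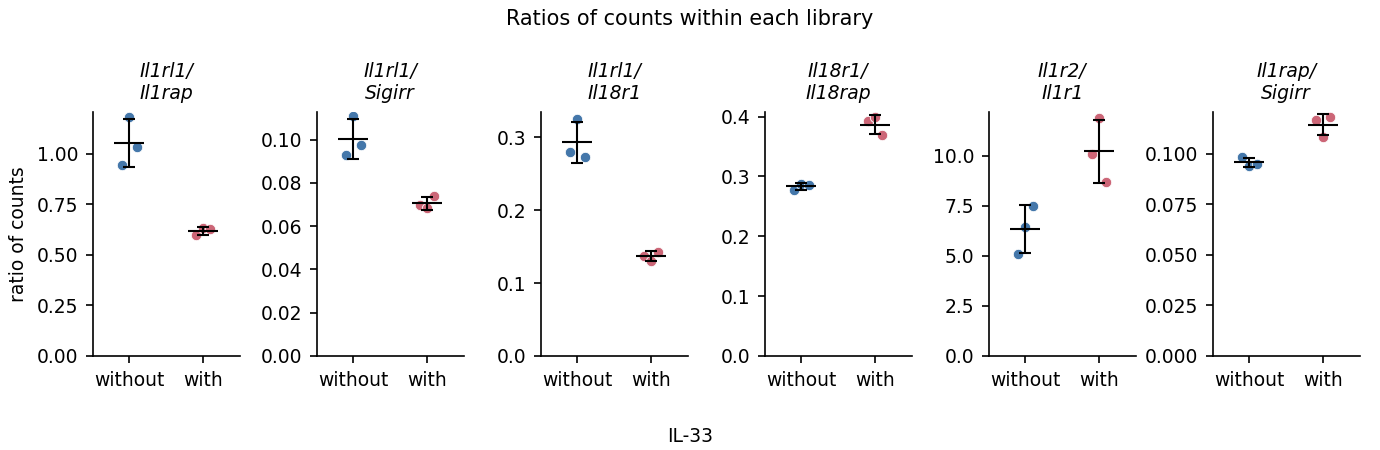
Ratio of counts of 2 genes within each library, 1 panel for each pair, with points for libraries and black bars for the mean and SD of n = 3. Vertical axes start at 0 and differ between panels. The 3 ratios with Il1rl1 on top lay lower with IL-33 and the other 3 lay higher, without overlap in any panel.

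Levels of different genes were compared as CPM divided by the exon length of the gene in kilobases (RPKM). In control libraries Sigirr had the highest level, at 52.1 ± 2.51 RPKM, then Il18rap at 28.4 ± 1.34 and Il1r2 at 24.5 ± 2.69, whose ranges overlapped. Il18r1 was at 11.3 ± 0.768 RPKM. Il1rl1 followed at 2.32 ± 0.327, above Il1rap at 1.34 ± 0.0374 in every library. Il1r1 at 1.16 ± 0.0959 and Il1rl2 at 1.03 ± 0.203 came last among the receptors and overlapped. With IL-33 the first 4 kept their places, and Il1rl1 at 1.41 ± 0.0561 overlapped Il1rap at 1.39 ± 0.0601 RPKM. Il1r1, at 0.729 ± 0.119, was then below Il1rl2, at 1.11 ± 0.0423, without overlap. Of the summed RPKM of the 8 receptors and decoys, Il1rl1 made up 1.89% ± 0.187 in control libraries and 1.21% ± 0.0398 with IL-33. Il18r1 made up 9.25% ± 0.117 and 12.7% ± 0.226. The RPKM of both IL-18 receptor chains, Sigirr and the decoy Il1r2 thus lay above those of the signalling receptors for IL-33, IL-1 and IL-36 in both groups. The order depended in part on the length used. With the longest transcript, Il1rap came before Il1rl1 in both groups. That length also put Il1rl2 before Il1rl1 with IL-33. With the coding length, Il1rap came before Il1rl1 with IL-33 only, where Il18r1 also came before Il1r2.

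The libraries were checked against lists of marker genes. All 8 genes of T cell identity were present, with a summed level of 3025 to 3144 CPM without IL-33 and 3132 to 3244 with it. Of these 8, all tested, 2 rose and 2 fell, beside 13.6% and 13.9% of all genes tested. Cd3g rose by 0.13 and Cd28 by 0.14 on the log2 scale (edgeR adjusted p = 0.0336 and 0.00258). The log2 fold change was -0.17 for Lck and -0.43 for Cd5 (edgeR adjusted p = 2.2e-05 and 0.0289). Cd3g and Cd5 did not pass with DESeq2 (adjusted p = 0.0879 and 0.0914) or with some single libraries left out. Cd4 was at 0.934 and 0.373 CPM, whereas Cd8a RNA was at 545 ± 13.6 and 400 ± 9.15 CPM in cells sorted for the absence of surface CD8. Cd8b1, the gene of the other CD8 chain, rose from 9.68 ± 1.65 to 16.3 ± 2.07 CPM (log2 fold change 0.75, edgeR adjusted p = 6.2e-08). Klrb1c, the gene of NK1.1, was at 33.5 and 25.6 CPM. Of 5 coreceptor and NK cell genes 4 were tested, and of these 1 rose and 3 fell, beside 13.6% and 13.9% of all genes tested. The 3 were Cd8a (log2 fold change -0.45, edgeR adjusted p = 2.4e-26), Klrb1c (-0.39, 7.1e-06) and Cd4 (-1.31, 0.0233). Cd4 did not pass without the first or second control library (edgeR adjusted p = 0.0725 and 0.102). Nor did it without the second or last IL-33 library (0.0606 and 0.125). ST2 is also carried by mast cells and basophils. Of 8 of their markers 7 were listed (Mcpt4 was not), with a summed level of 39.2 to 42.6 CPM in control libraries and 28.1 to 33.2 CPM with IL-33. Cpa3, a mast cell carboxypeptidase, fell from 10.9 ± 2.04 to 7.10 ± 0.615 CPM (log2 fold change -0.62, edgeR adjusted p = 8.3e-05), and Cma1, a chymase, fell by 0.30 on the log2 scale (edgeR adjusted p = 0.00761). Cma1 did not pass without the first control library (edgeR adjusted p = 0.0932) or without the first or second IL-33 library (0.0858 and 0.0703). The defining surface gene Fcer1a had 12, 5 and 8 counts in control libraries and 5, 0 and 0 with IL-33. Ms4a2 had 2, 3 and 6 and then 0 in each library. Of the 4 mast cell and basophil markers tested, 2 fell, beside 13.9% of all genes tested. Mcpt8 went from 5.81 ± 0.714 to 4.32 ± 1.40 CPM and did not pass (edgeR adjusted p = 0.0559). It did pass without the first control or first IL-33 library (edgeR adjusted p = 0.0256 and 0.00368) and with 1 other filter (0.0487). Hdc, at 1.30 ± 0.264 and 1.51 ± 0.204 CPM, went the other way and did not pass (edgeR adjusted p = 0.653). The summed level thus moved with Il1rl1, and the part of these markers in its fall was not tested. For the dendritic cells used in the conversion, Itgax went from 54.6 ± 2.07 to 26.0 ± 1.59 CPM, while Clec9a and Cd209a were not listed and Csf1r, Adgre1 and Flt3 had at most 13 counts in a library. The summed level of the 8 dendritic cell and macrophage markers listed was 56.5 to 59.6 and 28.7 to 31.5 CPM. Without Itgax the other 7 summed to 3.30 to 4.33 CPM in control libraries and 3.25 to 4.05 CPM with IL-33. Zbtb46, the other marker tested, was at 2.89 and 2.98 CPM (edgeR adjusted p = 0.912), and the part of these cells was not tested. Neutrophil markers were at 21.9 to 23.9 and 16.8 to 19.4 CPM and B cell markers at 4.79 to 5.70 and 5.30 to 6.35 CPM. Most of the neutrophil sum was Mmp9 (means 17.0 and 12.1 CPM) and Ly6g (5.96 and 5.81 CPM). S100a8 and Csf3r had at most 1 count in a library, and S100a9 was not listed. Of 5 regulatory T cell markers, all tested, 3 rose, beside 13.6% of all genes tested. Their summed level was 1514 to 1531 CPM in control libraries and 1906 to 1930 CPM with IL-33. Most of it was Il2ra, with means of 951 and 1194 CPM, and Ikzf2, with means of 439 and 522 CPM. Ctla4, an inhibitory receptor, rose from 104 ± 4.36 to 171 ± 2.60 CPM (log2 fold change 0.72, edgeR adjusted p = 1.6e-31), Ikzf2 rose by 0.25 and Il2ra by 0.33 on the log2 scale. Activated T cells also express Ctla4 and Il2ra. The defining factor Foxp3 was at 1.08 ± 0.223 and 0.807 ± 0.210 CPM and did not pass the test.

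The listed ligands of the family were at low counts in these cells. Il33 itself had 0 counts in control libraries and 2, 0 and 1 with IL-33. Il18 had 2, 3 and 1 counts in control libraries and 7, 15 and 5 with IL-33, below the filter for testing. Of 10 ligands and binding proteins 5 were listed and 2 tested, and Il1b was among those not listed. Il18bp, the secreted protein that neutralises IL-18, fell from 10.3 ± 0.498 to 7.75 ± 0.546 CPM (log2 fold change -0.41, edgeR adjusted p = 0.00884). The receptor genes Il1rapl1 and Il1rapl2, mainly of neurons, were not listed.

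Among 11 genes of proteins shared by the signalling receptors of the family, all tested, 1 rose and 2 fell, beside 13.6% and 13.9% of all genes tested. Irak2 rose by 0.34 on the log2 scale. Irak1, the kinase recruited after IRAK4, fell by 0.12 (edgeR adjusted p = 0.0138), and its libraries overlapped. Irak3, which encodes the inhibitory IRAK-M, had 35, 46 and 39 counts in control libraries and 37, 13 and 14 with IL-33 (log2 fold change -0.93, edgeR adjusted p = 0.0243). Irak3 did not pass without the second control library (edgeR adjusted p = 0.131), without the second or the last IL-33 library (0.146 and 0.143), or with DESeq2 (adjusted p = 0.109). Irak1 did not pass without the first or second control library (edgeR adjusted p = 0.0928 and 0.0519) or without the second or last IL-33 library (0.0611 and 0.0801). Myd88, the adaptor of the receptors, had a log2 fold change of 0.06 (edgeR adjusted p = 0.483) and Traf6, the ligase downstream of it, 0.05 (edgeR adjusted p = 0.461).

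Of 7 transcription factors known to act on Il1rl1 or in cells that carry ST2, 3 rose and 2 fell, beside the same shares of all genes. Gata3, the master factor of type 2 helper cells, went from 59.6 ± 2.82 to 53.2 ± 1.23 CPM (log2 fold change -0.16, edgeR adjusted p = 0.0124). Its adjusted p was 0.121 without the second control library and 0.0671 without the first IL-33 library. Rora, a factor of type 2 innate lymphoid cells, fell from 117 ± 5.57 to 90.2 ± 2.70 CPM (log2 fold change -0.37, edgeR adjusted p = 5.1e-13). Stat5b, which acts below the IL-2 receptor, rose from 172 ± 5.40 to 229 ± 8.40 CPM (log2 fold change 0.41, edgeR adjusted p = 1.4e-18), and Stat5a rose by 0.18 on the log2 scale. Batf rose by 0.11 (edgeR adjusted p = 0.0320) and did not pass without the last control library (0.169), without the second or last IL-33 library (0.0608 and 0.0931), without the filter on low counts (0.0604) or with DESeq2 (adjusted p = 0.0869). Whether GATA or STAT factors bound at the motifs shown in the promoters of Il1rl1 and Il18r1 was not measured.

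**Figure D5:**
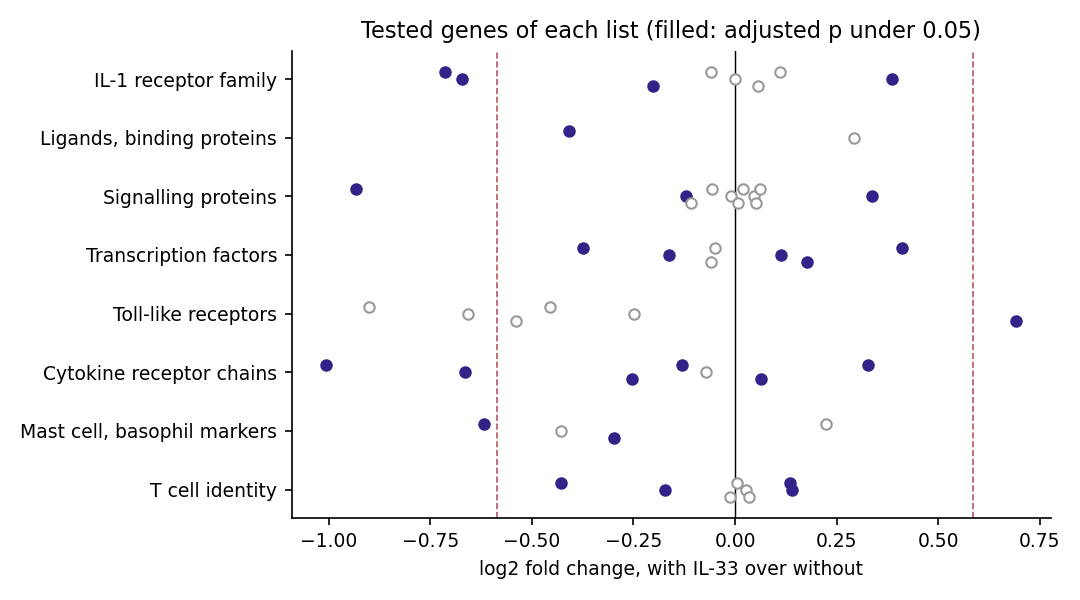
Log2 fold change, with IL-33 over without, of every tested gene in the IL-1 receptor family and in 7 lists of related genes or markers. Filled points passed an adjusted p of 0.05 in the edgeR fit, and dashed lines mark a fold change of 1.5. The receptor family spans -0.71 to 0.38, and the signalling list lies mostly near 0 with Irak3 at -0.93 and Irak2 at 0.34.

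The genes whose pattern over the 6 libraries lay closest to that of Il1rl1 were found by the root mean square difference of centred log2 CPM among 10137 genes with a mean of at least 5 CPM. The closest was 4632404H12Rik, with a difference of 0.038, then F830016B08Rik (0.068), the early growth response factor Egr2 (0.082), the mast cell protease Cpa3 (0.084) and Cmtm4 (0.089). All 5 were lower with IL-33, by -0.69, -0.72, -0.70, -0.62 and -0.72 on the log2 scale. This follows from their selection by likeness to Il1rl1 over the same libraries and is not a separate result. With profiles scaled to unit SD only 1 of the 5 stayed among the closest, so that the choice of measure decides most of this list.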

How the data were processed

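The 9 genes and all lists were chosen with earlier results of these data known. The deposited values are raw counts for each gene and library as the authors made them, and a column of signal that matched the mean of counts divided by DESeq2 size factors within 2.1e-07%. The submitters' processing notes name Bowtie 0.12.2 and the build mm8. For the counting program, the annotation and the use of strand, nothing is given in the sources used here. The labels name a TruSeq library kit, the paper NEBNext Ultra. Libraries held 20256342 to 22336050 counts, and every pair of replicates differed by more than sampling noise.

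Positions and lengths come from GENCODE M21 (GRCm38), in which 26086 of 26128 listed identifiers were found, and 26072 had a symbol. Genes were filtered with filterByExpr (minimum count 10, minimum total 15, removing 0.110% of counts), scaled by TMM and compared with edgeR 4.0.16 (R 4.3.3, robust glmQLFit and glmQLFTest, two-sided, no covariates). Thresholds were an adjusted p of 0.05 and a fold change of 1.5. Log2 CPM used a prior count of 2. The fit was tested on simulated data. Alternatives used DESeq2 1.42.0, limma 3.58.1 (voom), DESeq2 size factors, 2 other filters, a replicate block and each library left out. Genes named are the members, the 5 closest to Il1rl1, list genes past both thresholds and list genes needed to describe a role.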

Additional observations from a re-analysis of the deposited data

How the results depend on the processing

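Every called member kept its direction and its adjusted p under 0.05 in each of 12 alternatives. With 1 library left out, the log2 fold change ran from -0.80 to -0.60 for Il1rl1, from -0.81 to -0.58 for Il1r1, from -0.24 to -0.17 for Sigirr and from 0.33 to 0.41 for Il18r1. For Il18rap it ran from -0.099 to -0.030, with an adjusted p of 0.0467 without the first control library. Il1r2 (-0.08 to 0.08) and Il1rl2 (-0.02 to 0.26) changed sign without passing the test. Members past both thresholds and lower numbered 1 to 2, Toll-like receptors called 1 to 2 and signalling proteins called 1 to 3. With the replicate block, Il1r1 was at -0.68 (edgeR adjusted p = 0.00169), no call of a member changed, and Il2rb lost its call (edgeR adjusted p = 0.0590). Libraries with the same replicate number correlated over genes at 0.0032 to 0.0116, above those with different numbers, at -0.0138 to 0.0029. All these correlations were very small, so the numbers were not taken to pair the libraries. All 48 counts over all genes stayed within 1.5 times the value reported, and all 42 ratios kept their direction. Ordered by longest transcript in control libraries, or by coding length with IL-33, 5 of the 9 genes kept their place. The low counts of Il1r1, Il1rl2 and Irak3 limit the precision of their values.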

Other observations

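Toll-like receptors share the TIR domain and the MyD88 pathway with the IL-1 receptor family. Of 12 such genes 10 were listed and 6 tested. Of the 6, 1 rose and 0 fell, beside 13.6% and 13.9% of all genes tested. Tlr2, a receptor for bacterial lipoproteins, had 90, 111 and 114 counts in control libraries and 180, 173 and 166 with IL-33. It rose from 4.97 ± 0.644 to 8.03 ± 0.489 CPM (log2 fold change 0.69, standard error 0.15, edgeR adjusted p = 9.5e-05), opposite in direction to Il1rl1 and Il1r1. The other 5 had log2 fold changes from -0.90 (Tlr7) to -0.25 (Tlr6) and did not pass the test, although Tlr1 did without the second IL-33 library (-1.01, edgeR adjusted p = 0.00402).

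Of 7 receptor chains for other cytokines, 2 rose and 4 fell, beside 13.6% and 13.9% of all genes tested. Il2ra, the high-affinity chain of the IL-2 receptor, rose by 0.33 on the log2 scale. Il2rb rose by 0.06 (edgeR adjusted p = 0.00861), and did not pass without the first IL-33 library (0.0676). Il17rb, a chain of the IL-25 receptor, fell from 10.7 ± 1.56 to 5.32 ± 0.687 CPM (log2 fold change -1.01, edgeR adjusted p = 2.1e-09). Il7r, the IL-7 receptor, fell from 95.9 ± 3.28 to 60.5 ± 3.4 CPM (log2 fold change -0.66, edgeR adjusted p = 1.1e-24). Crlf2, whose product joins IL-7 receptor alpha to bind TSLP, fell by 0.25 on the log2 scale. Il2rg, the common gamma chain, fell by 0.13 (edgeR adjusted p = 0.00720), and did not pass without the last control library (0.0546) or the last IL-33 library (0.0653).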
